A study of Mus musculus with 9 samples.

Results

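The genes described here encode proteins that hold the epithelium of the developing kidney to its basement membrane and present that membrane to the surrounding mesenchyme. They are Fras1, Frem1 and Frem2, whose products form the extracellular Fraser complex, the intracellular adaptor Grip1, the integrin chain Itga8 and its ligand nephronectin (Npnt). The 6 genes were taken by symbol from a table of read counts for 45808 gene symbols, and each of the 6 has a row. The libraries came from mK4, an established mouse cell line of embryonic kidney mesenchyme, and the culture medium held 10% FBS. The control group (n = 5) had gone through CRISPR/Cas with a non-targeting guide and has the Foxd2 wildtype genotype, and the other group (n = 4) is clone F7, with a homozygous Foxd2 frameshift. All libraries therefore come from cells that received the editing reagents, and every mutant library comes from 1 clone, so genotype and clone cannot be told apart. Nothing in the labels ties a replicate to its own culture, and the p-values therefore rest on a spread between libraries that may be technical.

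FRAS1 and FREM2 are large proteins with a transmembrane segment, and FREM1 is secreted. In the mouse the 3 proteins depend on each other for a stable place under the epithelium, GRIP1 is needed to bring FRAS1 and FREM2 to the basal cell surface, and loss of any of them can leave embryos with blisters and without kidneys. Nephronectin lies in the basement membrane of the ureteric bud, the Fraser complex helps to keep it there, and the integrin alpha8 beta1 of the mesenchyme binds it through an Arg-Gly-Asp motif. In mouse embryos this contact is needed for the mesenchyme to make enough GDNF, the signal that draws the bud in.

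Library totals ran from 6041556 to 16032175 counts, with F7 replicates 3 and 4 the shallowest at 6041556 and 6590712. Foxd2 RNA itself rose, from 3.73 ± 0.538 CPM in control (SD, n = 5) to 18.3 ± 3.78 CPM in F7 (n = 4; edgeR adjusted p = 1.93e-07), and gene counts do not show the frameshift. CPM are read counts scaled to library size with TMM factors. Of 10 mesenchyme markers 6 were tested, and their list summed to 2234 to 2955 CPM in control and 2492 to 2869 CPM in F7, most of it Vim at 2092 ± 295 CPM (SD, n = 5) in control. Wt1 and Hoxd11 had no read in any library. Osr1 (6 reads in control, 10 in F7) and Pdgfra (20 and 6) had too few for the test. Of the 6 tested, 2 were called lower (33.3%, against 17.9% of all tested genes) and 4 not called. The 4 were Vim, Hoxa11, Col1a1 and Col3a1 (log2 fold change 0.20, -0.067, -0.062 and 0.24). Pax2 and Sall1, named after their values were seen, fell from 153 ± 10.1 to 49.1 ± 2.38 CPM and from 60.5 ± 7.26 to 35.9 ± 1.97 CPM (edgeR adjusted p = 1.82e-09 and 2.84e-05), and their part in the results for Fras1 and Npnt was not tested. Of 8 epithelial markers, Epcam and Esrp1 had no read, and the summed level of all 8 ran from 1.66 to 3.37 CPM in control and from 1.53 to 2.69 CPM in F7. The 5 endothelial markers together stayed at or below 0.918 CPM and the 5 leukocyte markers at or below 8.34 CPM in every library.

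Fras1 and Npnt were the members with substantial RNA, and both fell in F7. The other 4 members had 0 to 23 reads in the 9 libraries together. The filter on low counts therefore left 2 of 6 members for the test, and these 2 were called lower in F7 by edgeR at an adjusted p under 0.05. In the same fit 35.3% of 14730 tested genes were called, 17.9% as lower and 17.4% as higher. Both genes also had every F7 library below every control library, as did 13.7% of tested genes, while 13.9% had every F7 library above. With 4 members outside the test, this count is no statement about all 6. In cell pools such as these, fewer cells that make an RNA and less of it per cell cannot be told apart.

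Fras1 encodes the founding member of the Fraser complex (ENSMUSG00000034687.8; mm10 chromosome 5, 96373955 to 96784728, plus strand, with 17.7 kb of exons). Control replicates 1 to 5 measured 167, 202, 110.1, 146 and 143 CPM of Fras1, from 1327 to 2770 reads each. F7 replicates 1 to 4 measured 16.4, 21.9, 24.4 and 23.4 CPM, from 145 to 255 reads each. The groups lay far apart, the lowest control being 4.52 times the highest F7 library. The means were 154 ± 33.7 CPM (SD, n = 5) and 21.5 ± 3.56 CPM (SD, n = 4), so F7 held 14.0% of the control level. On the log2 scale the difference was -2.86 (SE 0.19; adjusted p by edgeR 1.60e-06), and 84 of the 14730 tested genes had a lower value. Fras1 passed a test against a fold of 2 as well (edgeR adjusted p = 2.90e-05). Its spread within groups was modest, with a coefficient of variation of 21.9% in control and 16.6% in F7, where counting error alone would give 2.33% and 7.39%. The antisense gene Gm42604, which has no row in the count table, shares 159 of the 17709 exon bases of Fras1. Since use of strand in counting is not given in the sources used here, reads in that stretch cannot be assigned.

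Npnt encodes nephronectin, the integrin ligand (ENSMUSG00000040998.18; mm10 chromosome 3, 132881745 to 132950291, minus strand, with 5.03 kb of exons). The stretch of coding sequence with the codons of its integrin-binding motif is printed because that motif is what Itga8 recognises. It lies in mm10 at chr3:132904658-132904703 on the minus strand, within exon 8 of 12 in transcript Npnt-202, where the motif begins at codon 382. In GENCODE, 6 coding transcripts that start at ATG hold it once in frame, and transcripts without it were not counted. The capitals mark the 3 codons of the motif.
Npnt: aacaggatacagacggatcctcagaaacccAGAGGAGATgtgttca

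Control replicates 1 to 5 measured 84.2, 130.5, 125.7, 76.6 and 66.5 CPM of Npnt, from 789 to 1762 reads each. F7 replicates 1 to 4 measured 15.9, 13.5, 35.5 and 45.7 CPM, from 158 to 299 reads each. All F7 libraries were below all controls, but the lowest control was 1.45 times the highest F7 library. The means were 96.7 ± 29.4 CPM (SD, n = 5) and 27.7 ± 15.6 CPM (SD, n = 4), so 28.6% of the control level was left, a difference of -1.88 on the log2 scale (SE 0.42; adjusted p by edgeR 0.0115). By the same fit, 199 tested genes had a lower log2 fold change.

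F7 replicates 3 and 4 held more Npnt than F7 replicates 1 and 2. The coefficient of variation of Npnt was 30.4% in control and 56.2% in F7, where counting error alone would give 2.97% and 6.90%. Over all genes, too, chi-square per degree of freedom was lowest within these pairs. It was 3.17 between replicates 1 and 2 and 3.61 between replicates 3 and 4, against 6.28 to 9.12 across the pairs. This measure grows with depth, so pairs of unlike depth are not on 1 scale. With replicates 1 and 2 as the only mutant libraries Npnt was 6.53-fold lower (edgeR adjusted p = 0.000767), and with replicates 3 and 4 alone it was 2.37-fold lower (edgeR adjusted p = 0.0374), against 3.68-fold with all libraries. Replicates 3 and 4 are also the shallow libraries, and their columns in the count table read mk3 where the sample titles read mK4. The same columns read mk4 in the authors' normalized table. The part of depth or of this header in the Npnt values was not tested. Fras1 had the same order with a smaller gap, and its log2 fold change was -3.01 with F7 replicates 1 and 2 and -2.68 with F7 replicates 3 and 4. Npnt did not pass a test against a fold of 2 (edgeR adjusted p = 0.352).

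**Figure D1:**
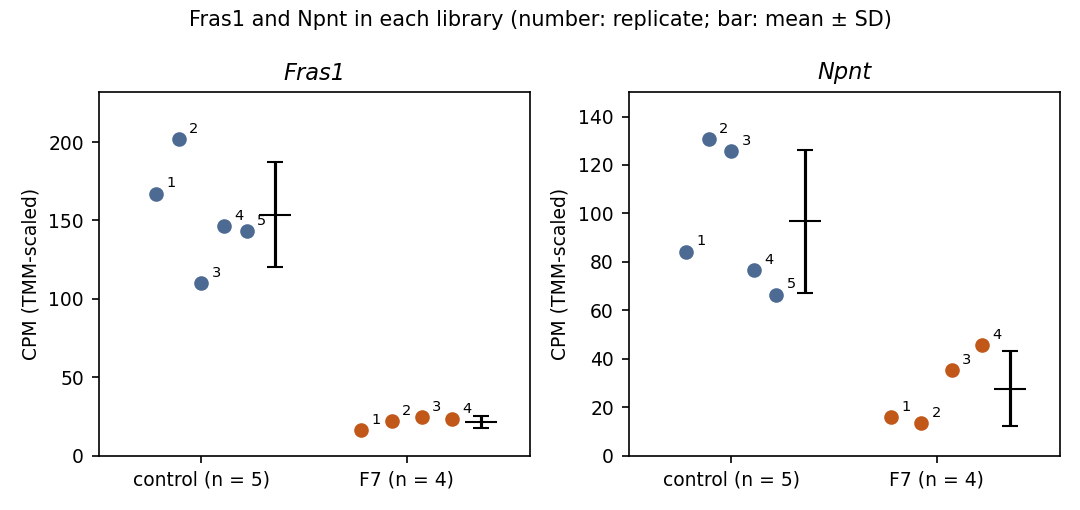
Level of Fras1 (left) and Npnt (right) in CPM in each library, with the replicate number beside each point and the mean ± SD as a bar beside each group (control n = 5, F7 n = 4). The F7 points of Fras1 lie between 16.4 and 24.4 CPM, whereas those of Npnt split into 13.5 and 15.9 CPM for replicates 2 and 1 and 35.5 and 45.7 CPM for replicates 3 and 4.

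The direction and the edgeR call at an adjusted p under 0.05 held for both genes in every library left out in turn. Fras1 then ranged from -2.96 to -2.73 and Npnt from -2.24 to -1.63 in log2 fold change. The authors' deposited table, whose fit may also have used a further F7 column that matches no sample here, gives -2.75 for Fras1 with an adjusted p of 5.22e-65. For Npnt the authors' deposited table gives -1.64 with an adjusted p of 0.000449.

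**Figure D2:**
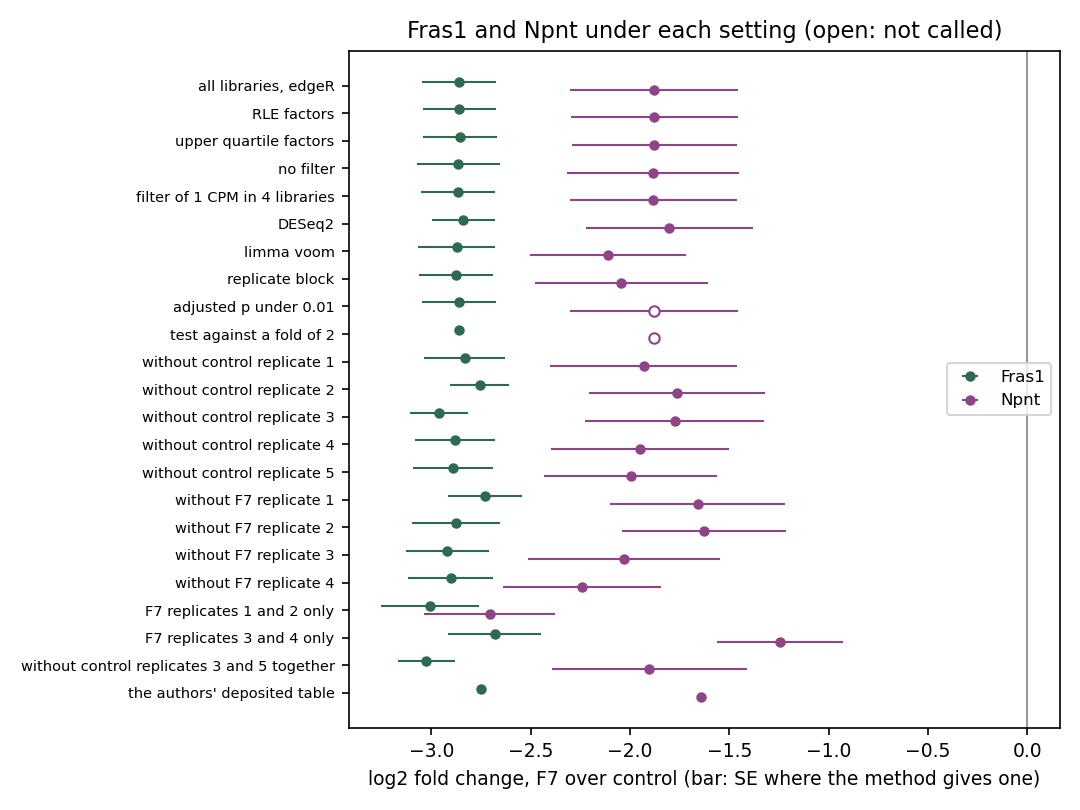
Log2 fold change of Fras1 (green) and Npnt (purple) between F7 and control under each setting, with the SE as a bar where the method gives one and open points where the gene was not called. Fras1 stays between -3.03 and -2.68, and Npnt moves between -2.71 and -1.24.

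Frem1 and Frem2, the partners of FRAS1 in the complex, had no read in any of the 9 libraries. Frem1 (ENSMUSG00000059049.14; mm10 chromosome 4, 82897920 to 83052339, minus strand) and Frem2 (ENSMUSG00000037016.11; mm10 chromosome 3, 53513938 to 53657355, minus strand) carry 14.0 and 13.3 kb of exons, so their length favours detection. A count of 0 allows a level of up to 0.0463 CPM in the control group and 0.0793 CPM in the F7 group, taking 3 counts over each group, and these limits cover counting error only. Among 1494 protein-coding genes with at least 10 kb of exons, 127, or 8.50%, likewise had no read. Per kb of exons, Fras1 in control was at least 2620-fold above Frem1 and at least 2484-fold above Frem2. In F7 the corresponding bounds were 214-fold and 203-fold. No difference between the groups can be given for either gene at this depth.

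Grip1, the PDZ adaptor, was close to the limit of detection (ENSMUSG00000034813.17; mm10 chromosome 10, 119453830 to 120087261, plus strand). Control replicates 1 to 5 had 7, 2, 3, 2 and 2 reads of Grip1, and F7 replicates 1 to 4 had 1, 4, 1 and 1. The groups overlapped. After scaling by library size the F7 to control ratio of reads was 0.749, with a 95% exact binomial interval from 0.261 to 1.92 that covers counting error only. Grip1 was removed by the filter; without it the log2 fold change was -0.38 (SE 0.71, edgeR adjusted p = 0.751). Of the 7 F7 reads 4 were in replicate 2, and without that library the ratio was 0.464, with an interval from 0.0867 to 1.62.

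Itga8, the receptor chain of nephronectin, had 1 read in all (ENSMUSG00000026768.10; mm10 chromosome 2, 12106632 to 12301922, minus strand). That read was in control replicate 2, and the remaining 8 libraries had none, so both groups were below the limit that 3 counts set and no fold is given. The antisense gene E030013I19Rik, which shares 372 bases with Itga8 exons, had no read either. Itgb1, which encodes the beta1 chain that pairs with alpha8 and with many other alpha chains, was abundant at 1019 ± 33.3 CPM (SD, n = 5) in control and fell to 824 ± 45.6 CPM in F7 (n = 4), by 0.31 on the log2 scale (SE 0.07; adjusted p by edgeR 0.00391), a call lost when replicates 3 and 4 stood for F7 (edgeR adjusted p = 0.0974).

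Levels of the 6 genes were set side by side only per kb of exons. In control, Npnt measured 19.2 ± 5.85 and Fras1 8.68 ± 1.90 CPM per kb (SD, n = 5). In F7, Npnt measured 5.50 ± 3.09 and Fras1 1.21 ± 0.201 CPM per kb (SD, n = 4). Grip1 followed at 0.0291 ± 0.0138 CPM per kb in control and 0.0228 ± 0.0141 CPM per kb in F7, and Itga8, Frem1 and Frem2 could not be ordered. Among 13861 tested genes with a known exon length, Fras1 moved from the 56.6th percentile of level per kb in control to the 16.0th in F7, and Npnt from the 78.8th to the 43.7th.

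Npnt was above Fras1 per kb in every library. The ratio of Npnt to Fras1 was 1.78, 2.28, 4.02, 1.84 and 1.63 in control replicates 1 to 5 and 3.41, 2.18, 5.13 and 6.89 in F7 replicates 1 to 4. The groups overlapped, since control replicate 3 lay above F7 replicates 1 and 2. The mean log2 ratio was 1.12 ± 0.53 (SD, n = 5) in control and 2.01 ± 0.72 (SD, n = 4) in F7, a difference of 0.89 that did not pass a two-sided exact permutation test with 126 arrangements (p = 0.0794, smallest possible 0.00794). This comparison was chosen after the values were seen. Against F7 replicates 3 and 4 alone the difference was 1.45 (exact permutation p = 0.0476, the smallest that these libraries allow). Against F7 replicates 1 and 2 alone it was 0.33 (exact permutation p = 0.524). Of 12 other settings, 1 gave a p under 0.05.

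**Figure D3:**
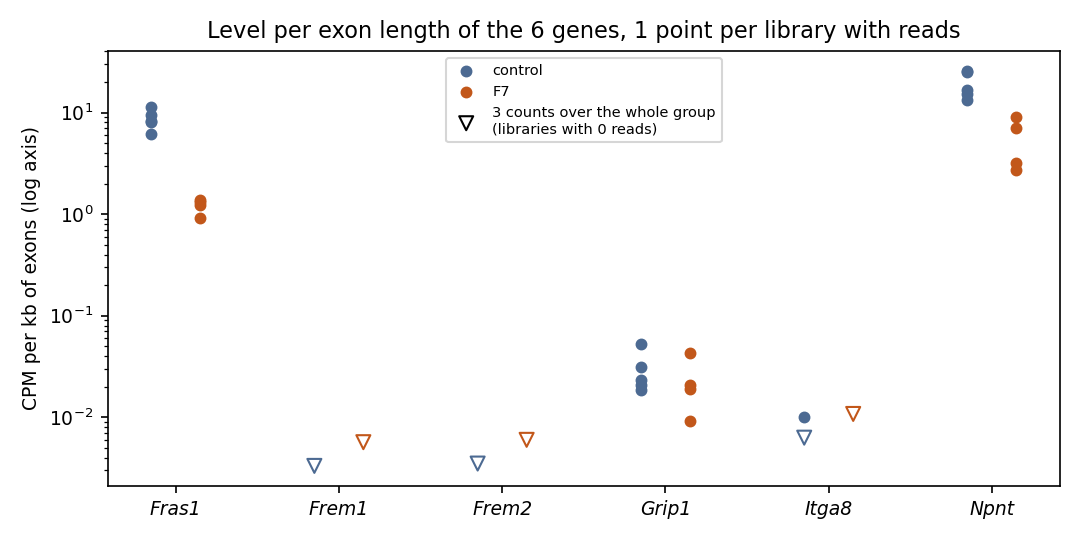
Level of each gene per kb of exons on a log axis, with 1 point per library that had reads (control blue, F7 orange). Open triangles mark the level that 3 counts over the whole group would give, drawn where a group has libraries with 0 reads. Fras1 and Npnt lie between 0.925 and 26.0 CPM per kb, Grip1 between 0.00907 and 0.0524, and the single Itga8 read stands for 0.0101 CPM per kb.

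The windows upstream of the transcription start are shown for nephronectin, whose RNA was detected in every library, and for its receptor chain, whose RNA was below the limit of detection. RefSeq windows on GRCm38.p6, the build that mm10 names, were matched for 5 of the 6 genes, all but Fras1. The 250 bases before the start are at chr3:132950292-132950541 for Npnt and chr2:12301945-12302194 for Itga8, both on the minus strand, and capitals mark CpG.
Npnt: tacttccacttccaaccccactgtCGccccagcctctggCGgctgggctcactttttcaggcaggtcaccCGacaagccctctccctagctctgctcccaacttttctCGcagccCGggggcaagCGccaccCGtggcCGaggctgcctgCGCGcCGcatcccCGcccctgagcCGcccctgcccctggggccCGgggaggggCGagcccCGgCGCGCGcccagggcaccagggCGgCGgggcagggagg
Itga8: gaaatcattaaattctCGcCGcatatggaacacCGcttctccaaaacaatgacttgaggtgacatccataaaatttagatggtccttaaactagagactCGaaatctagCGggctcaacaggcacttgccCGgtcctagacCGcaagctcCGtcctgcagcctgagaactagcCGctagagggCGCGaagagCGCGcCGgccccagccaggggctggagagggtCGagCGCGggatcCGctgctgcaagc
The Npnt window holds 21 CpG and the Itga8 window 18, both above the median of 6 over 32851 windows of this length. The windows at or nearest to the annotated starts of Frem1, Frem2 and Grip1 hold 7, 8 and 31. The letters TAAACA, a common core of forkhead sites, or their reverse complement occur in 12.0% of all windows and in none of the 9 windows of these 5 genes. No match says only that these letters are absent there.

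Within 1 Mb of Fras1, 8 other genes were tested, and 3 of them rose and 5 were not called, with a median log2 fold change of 0.45 and a range from -0.18 to 0.92. Within 1 Mb of Npnt, 6 other genes were tested, and 2 fell and 4 were not called, with a median of -0.038 and a range from -0.53 to 0.15. Over all tested genes, 17.4% were called higher and 17.9% lower. Whether either region moved as a whole was not tested. No neighbour had as low a value as the gene it lies beside. The medians over all tested genes of chromosomes 5 and 3 were -0.0048 and 0.0077.

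**Figure D4:**
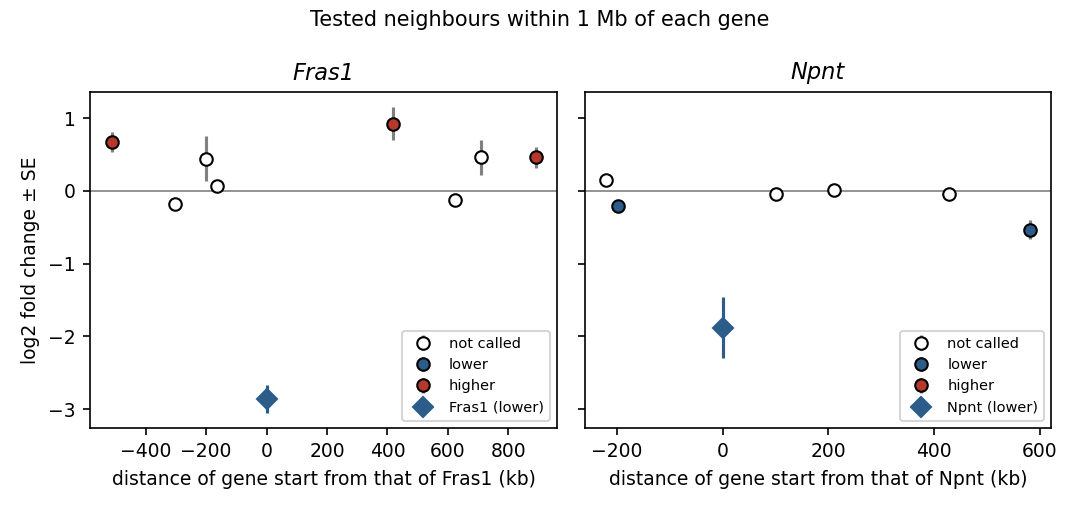
Log2 fold change ± SE of tested genes within 1 Mb of Fras1 (left) and Npnt (right), against the distance between gene starts in kb; filled circles were called, open circles were not, and diamonds mark Fras1 and Npnt. Fras1 at -2.86 and Npnt at -1.88 lie below all their neighbours, whose lowest values are -0.18 and -0.53.

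The genes whose profiles over the 9 libraries were most like Fras1, among 11666 candidates whose mean log2 CPM was 2 or more, were Lifr and Baiap2l1. Their root mean square difference from Fras1 was 0.18 and 0.20 on the log2 scale, after taking off each gene's control mean. This difference includes the gap between the groups, so genes with a like log2 fold change rank near (-2.75 for Lifr, -2.79 for Baiap2l1). A near place therefore does not show that 2 genes vary together between libraries of a group. Lifr, the receptor chain for leukemia inhibitory factor, went from 255 ± 49.3 CPM in control (SD, n = 5) to 38.4 ± 8.09 CPM in F7 (SD, n = 4), and Baiap2l1, a membrane-curving actin regulator, from 57.9 ± 2.74 to 8.61 ± 1.44 CPM. Npnt stood at place 89 in this order, with a difference of 0.80. Nearest to Npnt were the carbonyl reductase Cbr2 (0.27) and the secreted chaperone clusterin, Clu (0.35), which went from 32.7 ± 3.46 to 8.98 ± 3.97 CPM and from 8.41 ± 1.20 to 2.78 ± 1.61 CPM.

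Other genes linked to the Fraser complex were mostly low, with Fbln1 the most abundant. Of 9 such genes, 5 were tested, and 2 were called higher and 3 not called, where 17.4% of all tested genes were called higher. The median log2 fold change was -0.16, against -0.0052 over all tested genes. Without F7 replicate 3, 1 gene of the list, Fbln1, was called lower (edgeR adjusted p = 0.0474). Without F7 replicate 4, 1 gene was called lower that was not tested with all libraries, and Fbln1 was not called (edgeR adjusted p = 0.309). The number called lower differed from that with all libraries in 5 of 22 alternatives and was at most 2. Col7a1, the collagen of anchoring fibrils, rose from 24.6 ± 7.58 CPM in control (SD, n = 5) to 57.0 ± 6.22 CPM in F7 (SD, n = 4), by 1.23 on the log2 scale (SE 0.20; adjusted p by edgeR 0.00120). Hmcn2, a hemicentin of the extracellular matrix, rose from 0.222 ± 0.208 to 1.80 ± 0.618 CPM, on 13 and 70 reads per group (log2 fold change 3.10, SE 0.53, edgeR adjusted p = 0.000637). It stayed at or below 0.498 CPM in every control library and was at least 0.918 CPM in every F7 library. Hmcn2 therefore passed the filter only through F7, where it was high, and it was not tested under the filter of 1 CPM in 4 libraries. In 2 of 22 alternatives, 1 gene of the list was called higher. Vwa2, which encodes AMACO, a basement membrane protein that binds the complex, measured 1.30 ± 0.496 and 0.738 ± 0.468 CPM without a call (log2 fold change -0.91, edgeR adjusted p = 0.116). Fbln1 measured 149 ± 15.4 CPM in control and 134 ± 21.1 CPM in F7 without a call (log2 fold change -0.16, edgeR adjusted p = 0.242). Efnb1 measured 18.5 ± 0.653 and 16.1 ± 1.35 CPM, also without a call (log2 fold change -0.20, edgeR adjusted p = 0.0891). Frem3, the remaining FREM gene, had 15 reads in control and 3 in F7, and Grip2, the paralog of Grip1, had 70 and 16, too few to pass the filter.

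The list drawn up around alpha8 integrin held partners and ligands, and also the other alpha chains Itgav and Itga5, and Emilin1. Its counts are therefore not counts of partners and ligands alone. In this list, fibronectin, tenascin C and osteopontin had abundant RNA, whereas vitronectin (Vtn) had 12 reads in control and 0 in F7. Of 10 genes 7 were tested, and 2 were called lower (28.6%, against 17.9% of all tested genes), 2 higher (28.6%, against 17.4%) and 3 not called, with a median log2 fold change of -0.13. Fibronectin (Fn1) rose from 2961 ± 684 CPM in control (SD, n = 5) to 5357 ± 636 CPM in F7 (SD, n = 4), by 0.86 on the log2 scale (SE 0.15; adjusted p by edgeR 0.000790). Tenascin C (Tnc, -0.13) and osteopontin (Spp1, -0.16) were not called. Emilin1, an elastic-fibre protein, fell by 1.10 on the log2 scale (edgeR adjusted p = 0.000477). Of the other alpha chains that bind Arg-Gly-Asp, Itgav rose by 0.21 on the log2 scale (edgeR adjusted p = 0.0247), a call lost in 7 of 22 other settings, among them those without F7 replicate 3, F7 replicate 4 or control replicate 4 (edgeR adjusted p from 0.0592 to 0.0783), and Itga5 measured 0.19 without a call (edgeR adjusted p = 0.0540). The nephronectin relatives Egfl6 and Egfem1 had 2 reads and no read in all libraries together, so Npnt was the member of that family with substantial RNA.

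A further list held genes of the GDNF axis, on which nephronectin and alpha8 integrin act in the mouse embryo. Of 14 genes 11 were tested, and 5 were called higher (45.5%, against 17.4% of all tested genes), 2 lower (18.2%, against 17.9%) and 4 not called, with a median log2 fold change of 0.36. The share called lower was thus near that of all tested genes. Gdnf measured 24.5 ± 4.47 CPM (SD, n = 5) in control and 31.0 ± 5.21 CPM (SD, n = 4) in F7 and was not called (log2 fold change 0.36, SE 0.14, edgeR adjusted p = 0.0561), although 6 of 22 other settings called it higher. Its co-receptor Gfra1 fell from 7.66 ± 1.66 to 2.95 ± 1.73 CPM, a log2 difference of -1.48 (SE 0.29; adjusted p by edgeR 0.00181), and this call was lost when F7 replicates 3 and 4 stood for the mutant alone (edgeR adjusted p = 0.0829). The receptor Ret had no read, and whether GDNF signalling changed in these cells was not tested. Kif26b, a kinesin that in the mouse is needed for normal levels of Itga8 in the mesenchyme, rose from 75.9 ± 8.56 to 120.7 ± 4.84 CPM, a log2 difference of 0.67 (SE 0.08; adjusted p by edgeR 3.24e-05). Fgfr2 fell by 2.49, and Etv5, Wnt11, Etv4 and Slit2 rose by 2.63, 2.22, 2.07 and 0.51 on the log2 scale. The call of Slit2 was lost when replicates 3 and 4 stood for F7 (edgeR adjusted p = 0.0634). Wnt11 was low, with 28 reads in control and 79 in F7. It reached at most 0.593 CPM in a control library and at least 1.68 CPM in each F7 library. Wnt11, 1 of the 5 genes called higher, thus passed the filter only through F7. Spry1 was not called, but it measured -0.80 when replicates 3 and 4 stood for F7 (edgeR adjusted p = 0.00374) and 0.073 when replicates 1 and 2 did so. Eya1, which acts upstream of Gdnf, measured -0.35 without a call, and it was called lower in 3 of 22 other settings, without control replicate 5 (edgeR adjusted p = 0.0304), without control replicates 3 and 5 (0.0182) and when replicates 1 and 2 stood for F7 (0.0483).

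Among 22 structural genes of the basement membrane 16 were tested. Of these, 10 were called lower (62.5%, against 17.9% of all tested genes), 1 higher (6.25%, against 17.4%) and 5 not called, with a median log2 fold change of -0.41. The type IV collagen Col4a6 fell from 738 ± 117 CPM in control (n = 5) to 448 ± 48.1 CPM in F7 (n = 4), by 0.72 on the log2 scale (edgeR adjusted p = 0.000353), and Col4a3 fell furthest of the list, by 2.16 (edgeR adjusted p = 0.00609), a call lost when replicates 3 and 4 stood for F7 (-1.49, edgeR adjusted p = 0.116). Agrin (Agrn, -0.49) and the linker nidogen 2 (Nid2, -0.67) also fell. The laminin chain Lama5, common in epithelial basement membranes, was the gene that rose, from 226 ± 38.0 to 358 ± 34.1 CPM, a log2 difference of 0.66 (SE 0.11; adjusted p by edgeR 0.000693). When F7 replicates 3 and 4 stood for the mutant alone, 4 genes of the list were called lower. Without control replicate 5, 2 genes were called higher.

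**Figure D5:**
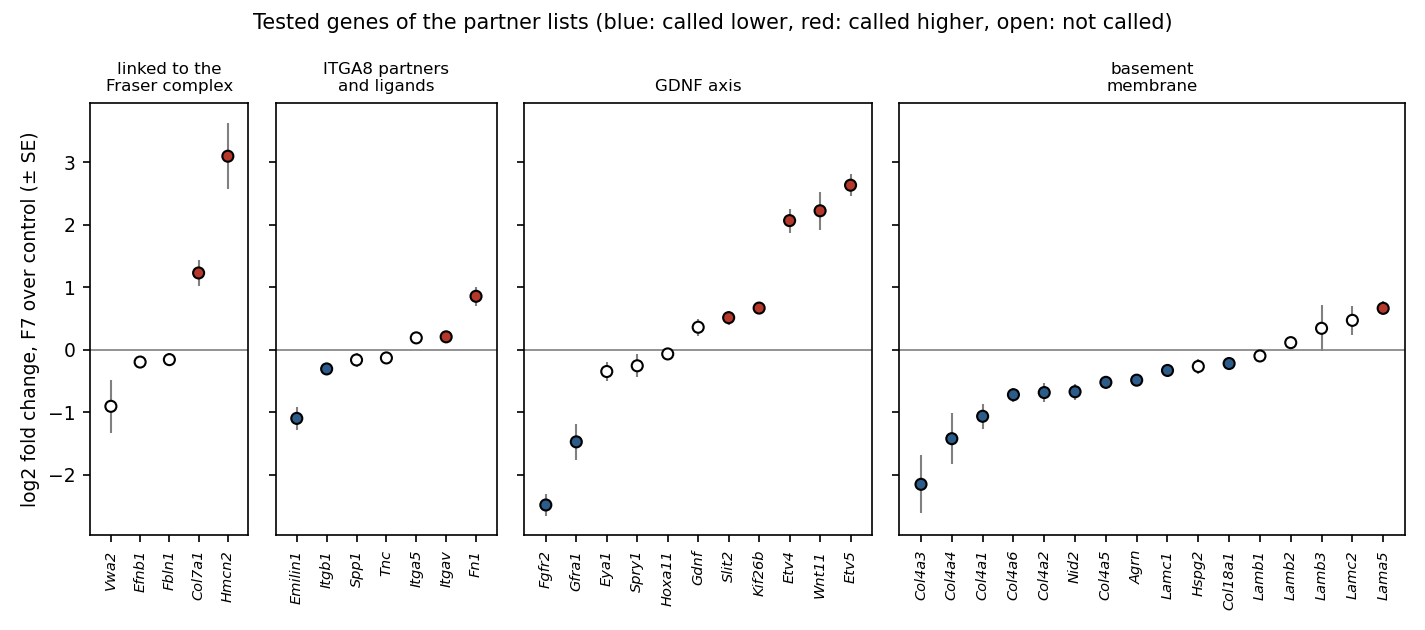
Log2 fold change ± SE between F7 and control for the tested genes of the 4 partner lists, with genes called lower in blue, called higher in red and not called open. The panel for alpha8 integrin also holds the other alpha chains Itgav and Itga5, and Emilin1. The basement membrane panel holds 10 blue points, from Col4a3 at -2.16 upward, and 1 red point, Lama5 at 0.66.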

How the data were processed

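The submitters' processing notes name the build mm10, featureCounts, DESeq2 (1.18.1) and R (3.4.3), without saying which step each served. Sources used here do not name an aligner, an annotation or the use of strand. The authors deposited raw counts per gene symbol, on which all tests were run. The authors' normalized signal equals these counts divided by 1 factor per library and served only as a check. The authors' deposited comparison gives each gene's log2 fold change with its adjusted p-value. In the raw and in the normalized table, 1 further F7 column matches no sample and was not used.

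Counts were fitted over all genes with edgeR 4.0.16 (quasi-likelihood, robust, TMM) in R 4.3.3, with the group as the only term. Genes were kept by filterByExpr (minimum count 10, total 15), which left 14730. P-values were adjusted over those genes by Benjamini-Hochberg, with calls made under 0.05. Each SE was computed as the size of the log2 fold change over the root of the F statistic. The script was tested on simulated data. Positions and exon lengths came from GENCODE M21, matched by symbol for 94.1% of tested genes. Library totals ran from 6041556 to 16032175 counts, and every pair of replicates differed by more than sampling noise (smallest chi-square per degree of freedom 3.17).

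The members and lists were chosen with earlier results of these data known, so nothing here is independent support for those results. From the GDNF list, 1 gene is not reported here and is left out of its counts and median. Named genes were the 6 members, Foxd2, tested genes of 3 partner lists, the 4 basement membrane genes with the smallest adjusted p and the largest called change in each direction, and the 2 nearest profiles of each tested member; marker genes were named outside this rule. The fit was repeated with DESeq2 1.42.0 and limma voom (limma 3.58.1), with RLE or upper-quartile factors, unfiltered or filtered at 1 CPM in 4 libraries, with the replicate number as a block, without each library, and with other sets of libraries. Calls were also made under 0.01, against a fold of 2, and from the authors' deposited table.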

Additional observations from a re-analysis of the deposited data

Results flagged for a closer look

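Among 100 groups of libraries checked over 50 named genes, 8 held a library far from the rest, where chance gives about 1 group in 20. None was a group of Fras1 or Npnt. In F7, replicate 3 was high for Itga5 (78.0 CPM, others 65.0 to 65.8) and for Gfra1 (5.55 CPM, others 2.05 to 2.14), replicate 4 was low for Slit2 (56.1 CPM, others 61.2 to 61.5), and replicate 1 was low for Lamc1 (314 CPM, others 341 to 346). In control, replicate 4 was low for Itgav (214.8 CPM, others 233 to 240.1), replicate 5 was high for Tnc (769 CPM, others 623 to 653), replicate 1 was high for Pax2 (169.8 CPM, others 144 to 152), and replicate 3 was high for Col18a1 (642 CPM, others 502 to 537).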

How the results depend on the processing

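Fras1 kept its direction and its call in all 22 alternatives, with log2 fold changes from -3.03 to -2.68. Npnt kept its direction in all 22, from -2.71 to -1.24, and lost its call in 2, at an adjusted p under 0.01 and in the test against a fold of 2 (log2 fold change -1.88 in both, edgeR adjusted p = 0.0115 and 0.352). The number of members called lower was 2 in 20 alternatives and 1 in these 2. The count of called genes, 5196, was 2894 at an adjusted p under 0.01, 365 in the test against a fold of 2, 2160 with F7 replicates 3 and 4 alone and 4149 with F7 replicates 1 and 2 alone; the cause was not tested. With each library left out it ran from 3543 to 5872. Genes without a call over all libraries that changed sign were Fbln1 (0.0079), Hoxa11 (0.074) and Lamb3 (-0.41) with F7 replicates 3 and 4 alone and Spry1 (0.073) with F7 replicates 1 and 2 alone, which was called lower with F7 replicates 3 and 4 alone (-0.80). The Grip1 ratio of reads ran from 0.464 to 1.005 and stayed inside its interval.

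The labels do not say whether same-numbered control and F7 libraries share more than a number. The correlation of their deviations from the group means was -0.051, 0.066, 0.21 and -0.054 for numbers 1 to 4. Only F7 replicate 3 correlated best with its own number. These correlations cannot exclude a shared culture or day. With the replicate number as a block, 5149 genes were called, Fras1 measured -2.87 and Npnt -2.05 (edgeR adjusted p = 5.58e-05 and 0.0241), Gdnf and Itga5 gained a call (edgeR adjusted p = 0.0126 and 0.0375) and Itgav and Col18a1 lost theirs (0.0638 and 0.0781). Depth sets the limit for Frem1 and Frem2, whose count of 0 allows up to 0.0463 CPM in control and 0.0793 CPM in F7.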
